A study of Mus musculus with 9 samples.

Results

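The genes described here are those of the leukaemia inhibitory factor (LIF) pathway in mouse embryonic stem cells, taken by symbol from the table of read counts: the ligand gene Lif, the receptor genes Lifr and Il6st, the kinase genes Jak1 and Jak2, the transcription factor gene Stat3, and the Stat3 targets Socs3, Pim1 and Pim3. All 9 were present among the 52264 rows, and all 9 were among the 15366 genes with enough reads to be tested. RNA was sequenced from embryonic stem cells labelled beta-catenin-/-, with 3 libraries each from cells left untreated (control), treated with BRD0705 and treated with CHIR. CHIR (CHIR-99021) blocks both GSK3 kinases, GSK3α and GSK3β, whereas BRD0705 was developed to block GSK3α with selectivity over GSK3β. Every group came from cells grown on feeder-treated dishes and, in the naive expansion medium the labels describe, exposed to LIF at 40 ng/ml, CHIR at 3 µM and PD03, which blocks MEK, at 1 µM. Every group was then placed in N2B27, a serum-free basal medium, overnight, a step for which the labels name no LIF, and was then left untreated or given an inhibitor for 30 min (the labels name no dose for this step). No unedited parental line was analysed here, and the labels do not say whether the cells were 1 clone or whether the replicates were separate cultures, so p-values measure the spread between these libraries, which may be technical.

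LIF binds a receptor made of LIFR and gp130, the product of Il6st, and the bound Janus kinases (JAKs) phosphorylate STAT3, which moves to the nucleus and activates its target genes. In mouse embryonic stem cells this signal sustains naive self-renewal, with GSK3 and MEK inhibition as the other arms of the usual culture medium. Socs3 encodes an inhibitor that binds the receptor and the JAKs and shuts the signal down, and Pim1 and Pim3 encode serine/threonine kinases that promote survival.

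Lif rose with CHIR, and it was the only 1 of the 9 genes to pass the test against control under either inhibitor. Lif rose 1.66-fold with CHIR, from 5.87 ± 0.916 to 9.74 ± 0.877 CPM (read counts scaled to the TMM-adjusted library size; SD, n = 3 each), and was higher with CHIR than with BRD0705, a call that was lost without any 1 of 4 of the libraries. Lifr was lower with BRD0705 than with CHIR, a call that was lost without any 1 of 7 of the libraries. Stat3, its kinases and its targets Socs3, Pim1 and Pim3 had fitted differences from control of at most 0.13 on the log2 scale in either direction. In the wider set of pathway genes, Klf4 and Myc differed between the inhibitors in opposite directions.

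A promoter window of Lif is shown because Lif was the member that rose, and one of Socs3 because it was the only member with a match to the STAT-type palindrome. Each is the 250 bases before a transcript start site in RefSeq's promoter table (GRCm38.p6, which is mm10), at chr11:4257318-4257567 on the plus strand for Lif and chr11:117969367-117969616 on the minus strand for Socs3. A start in that table need not be the outer end of the gene, as the gene spans given below cover all annotated transcripts. The Socs3 window, both windows of Lifr and 1 of the 2 Pim1 windows lie inside those spans. The Stat3 and Jak1 windows lie partly inside them. Capitals mark the palindrome TTCNNNGAA, searched on both strands.
Lif: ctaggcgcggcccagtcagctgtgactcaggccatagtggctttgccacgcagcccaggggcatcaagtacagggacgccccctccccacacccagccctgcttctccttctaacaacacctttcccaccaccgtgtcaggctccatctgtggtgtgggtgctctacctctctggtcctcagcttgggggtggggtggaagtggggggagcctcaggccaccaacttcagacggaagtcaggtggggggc
Socs3: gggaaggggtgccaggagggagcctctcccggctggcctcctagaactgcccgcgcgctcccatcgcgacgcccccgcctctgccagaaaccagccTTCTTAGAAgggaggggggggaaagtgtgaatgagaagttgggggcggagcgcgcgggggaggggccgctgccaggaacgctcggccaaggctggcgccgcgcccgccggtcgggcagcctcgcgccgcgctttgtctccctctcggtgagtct
The palindrome occurred once before Socs3, from base -154 to base -146 relative to that transcript start, and in none of these windows for the other 8 members. Of 32851 mouse promoter windows of 250 bases, 7.02% held at least 1 match. A match describes letters and not binding, and its absence says only that these letters are not in this window.

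All 9 libraries held reads of the stem cell and of the feeder genes. Total counts ran from 17359422 to 20773337 per library, and replicate pairs differed by more than sampling noise (chi-square over degrees of freedom, 3.40 to 8.05). The 10 stem cell markers, among them Pou5f1, Sox2, Nanog and Esrrb, had counts in every library and summed to 5223 to 5381 CPM in control, 5317 to 5485 CPM with BRD0705 and 5421 to 5584 CPM with CHIR. Of these 10, 1 passed as higher with CHIR than in control and 2 as lower with BRD0705 than with CHIR. Over all tested genes these shares were 2.52% and 2.97%. The 12 fibroblast markers, with collagen genes such as Col1a1 among them, also had counts in every library, and none was at 0. Their sum was 2310 to 2778 CPM in control, 2912 to 3002 CPM with BRD0705 and 2619 to 3106 CPM with CHIR, with a median log2 fold change against control of 0.17 for each inhibitor. Of these 12, 1 passed the test as higher with each inhibitor, beside 0.690% of all tested genes with BRD0705 and 2.52% with CHIR. The fitted difference from control was above 0 for 11 of the 12 with BRD0705 and for all 12 with CHIR. Markers of endoderm (3.44 to 4.63 CPM summed), mesoderm (0.641 to 1.42) and neural cells (4.18 to 6.70) were low in every library, with the endoderm gene Foxa2 at 0 in most of them, and those of primed epiblast summed to 82.3 to 103.8 CPM. The neural sum was 5.82 to 6.70 CPM in control, 5.06 to 6.69 with BRD0705 and 4.18 to 4.70 with CHIR. Of the 2 neural genes, 1 passed as lower with CHIR than in control, beside 3.78% of all tested genes. Between the inhibitors 1 passed as higher with BRD0705, beside 4.80%. The primed epiblast sum was 94.1 to 103.8 CPM in control, 82.3 to 89.8 with BRD0705 and 88.0 to 99.3 with CHIR. Of these 3 genes, 0 passed in any comparison. Ctnnb1, the gene named in the genotype, was read at 344 ± 21.4 CPM (SD, n = 9), with 5657 to 7457 counts per library, and a count per gene cannot tell which parts of the gene were transcribed. In RNA from a mixture of stem cells and feeder cells, more cells of one type and more RNA per cell cannot be told apart.

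**Figure D1:**
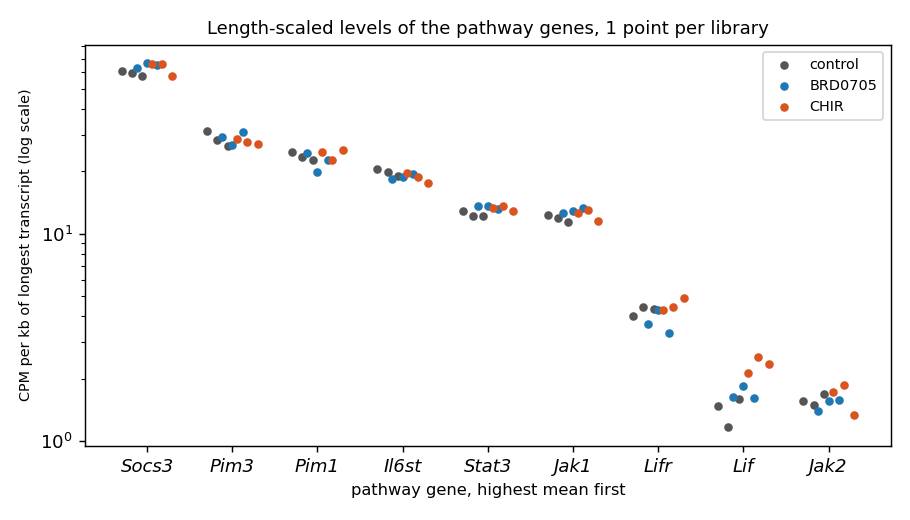
CPM per kilobase of the longest annotated transcript for the 9 pathway genes, on a log axis, with 1 point per library coloured by treatment. Socs3 stands highest, at 57.5 to 66.7, and Lif and Jak2 lowest, at 1.17 to 2.56 and 1.34 to 1.87.

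Levels were compared between genes per length, as CPM per kilobase of the longest annotated transcript, over all 9 libraries. Counts per gene do not tell which transcripts were present, so the order between genes depends on this choice of length. All 9 libraries followed the overnight step in a medium for which no LIF is named, so an effect of that step was not tested. Socs3, the feedback inhibitor, stood highest, at 62.5 ± 3.63 CPM per kb (SD, n = 9 for each gene in this paragraph). The survival kinase genes Pim3 and Pim1 followed, at 28.5 ± 1.71 and 23.4 ± 1.69 CPM per kb. Il6st, the shared receptor subunit, was at 19.1 ± 0.888 CPM per kb. Stat3 was at 13.1 ± 0.568 and Jak1 at 12.4 ± 0.646 CPM per kb. Lifr, the ligand-specific subunit, was at 4.19 ± 0.471 CPM per kb, below its partner Il6st in every library. Lif was at 1.82 ± 0.446 and Jak2 at 1.58 ± 0.165 CPM per kb. The ranges over libraries overlapped between 3 neighbouring pairs in this order, Pim1 and Il6st, Stat3 and Jak1, and Lif and Jak2, and did not overlap between the other 5. Among tested genes, by mean log2 CPM not scaled by length, Socs3 and Il6st both lay at percentile 92.4 and Lif at percentile 36.6.

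The ligand was examined first. Lif lies on chromosome 11 from 4257568 to 4272514. It stood at 6.16, 4.84 and 6.60 CPM in control replicates 1 to 3, at 6.79, 7.68 and 6.74 CPM with BRD0705, and at 8.87, 10.6 and 9.73 CPM with CHIR. The lowest CHIR library was above the highest library of both other groups, and the control and BRD0705 ranges did not overlap either. These levels rest on 100 to 193 reads per library. With CHIR, Lif was higher than control by 0.73 ± 0.13 on the log2 scale (SE; 95% interval 0.46 to 1.00, edgeR's quasi-likelihood test, Benjamini-Hochberg adjusted p = 0.00231 over all 15366 genes). It passed the threshold in all 20 alternative fits, 9 of which left out 1 library each. With the fibroblast marker score of each library as a covariate, the Lif difference was 0.69, with an edgeR adjusted p of 0.0459, against 5.62e-06 to 0.0459 over all its alternatives. With BRD0705 the Lif difference from control was 0.27 ± 0.13 (SE; 95% interval -0.01 to 0.55) and did not pass (edgeR adjusted p = 0.343). BRD0705 and CHIR were also compared directly. Lif was lower with BRD0705 than with CHIR (log2 difference -0.46 ± 0.13 SE; edgeR adjusted p = 0.0332). This call was lost without BRD0705 replicate 1 (edgeR adjusted p = 0.115), BRD0705 replicate 3 (0.100), CHIR replicate 2 (0.133) or CHIR replicate 3 (0.0690).

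**Figure D2:**
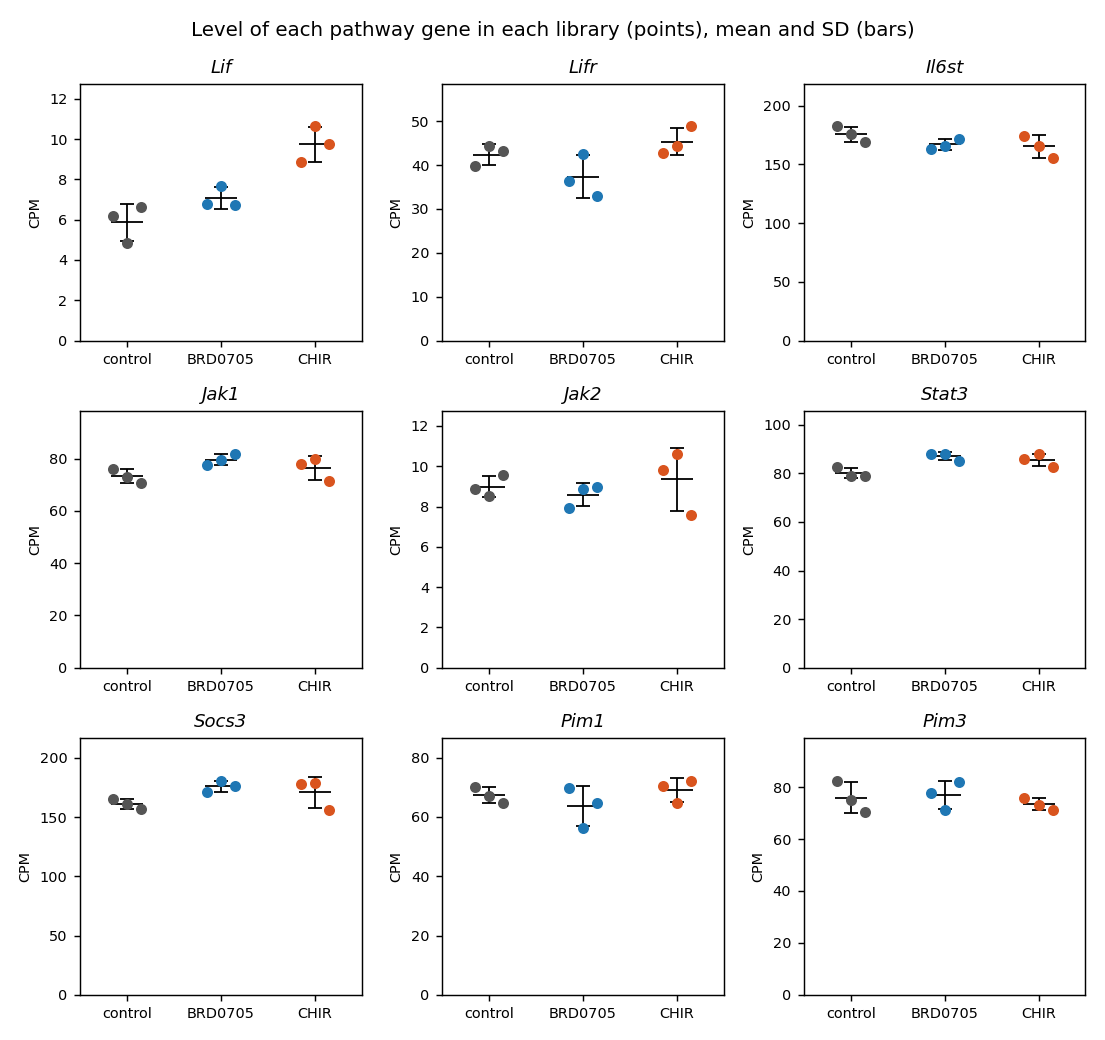
Level of each of the 9 pathway genes in CPM (vertical axis, from 0) by treatment, with 1 point per library in replicate order, and bars for the mean and SD of 3 libraries. The 3 CHIR libraries lie above all others for Lif, at 8.87 to 10.6, while the groups overlap or nearly meet for the other genes.

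The receptor genes came next. Lifr, on chromosome 15 from 7090610 to 7197489, stood at 39.8, 44.3 and 43.1 CPM in control replicates 1 to 3, at 36.5, 42.6 and 33.0 CPM with BRD0705, and at 42.8, 44.3 and 48.8 CPM with CHIR. BRD0705 replicate 2 lay within the control range and the other BRD0705 libraries below it, and the highest BRD0705 library was just below the lowest CHIR library. Lifr was lower with BRD0705 than with CHIR (log2 difference -0.28 ± 0.08 SE; 95% interval -0.45 to -0.11, edgeR adjusted p = 0.0428). The edgeR adjusted p of this difference was 0.0783 with scaling by library size only and 0.0565 with only the inhibitor libraries fitted. It was 0.0575 or 0.0611 without control replicate 2 or 3, 0.135 or 0.174 without BRD0705 replicate 1 or 3, and 0.0538, 0.0903 or 0.148 without CHIR replicate 1, 2 or 3. Against control, Lifr differed by -0.19 ± 0.08 with BRD0705 (SE; edgeR adjusted p = 0.278) and by 0.10 ± 0.08 with CHIR (SE; edgeR adjusted p = 0.569), and neither passed. Il6st, on chromosome 13 from 112464070 to 112506860, ranged from 169 to 182 CPM in control, 163 to 172 CPM with BRD0705 and 155 to 174 CPM with CHIR. These ranges overlapped, and the fitted difference between the inhibitors was 0.02 on the log2 scale, with a 95% interval of -0.10 to 0.13.

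Jak1 and Jak2 encode the kinases that the receptor activates, and neither passed in any comparison. Jak1, on chromosome 4 from 101151974 to 101265282, had mean levels of 73.3 ± 2.75 (control), 79.7 ± 2.18 (BRD0705) and 76.5 ± 4.54 (CHIR) CPM (SD over 3 libraries). Every BRD0705 library was above every control library, and the difference of 0.12 ± 0.06 (SE) had an edgeR adjusted p of 0.328. Jak2, on chromosome 19 from 29251803 to 29313095, was at 8.99 ± 0.527, 8.59 ± 0.584 and 9.35 ± 1.57 CPM in the same order (SD, n = 3 each). Jak2 had the widest spread within a group of the 9 members, with a coefficient of variation of 16.8% in the CHIR group. Its 95% interval for CHIR against control ran from -0.20 to 0.32 on the log2 scale, with 139 to 197 reads per library.

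Stat3, on chromosome 11 from 100886806 to 100939594, stood at 82.7, 78.9 and 78.8 CPM in control replicates 1 to 3, at 88.2, 87.8 and 85.2 CPM with BRD0705, and at 86.0, 87.8 and 82.7 CPM with CHIR. The BRD0705 libraries were all above the control libraries, while CHIR replicate 3 lay just inside the control range. The difference from control was 0.12 ± 0.05 with BRD0705 (SE; 95% interval 0.01 to 0.23, edgeR adjusted p = 0.287) and 0.09 ± 0.05 with CHIR (SE; 95% interval -0.02 to 0.21, edgeR adjusted p = 0.354). Neither passed over all genes, and the inhibitors differed in Stat3 by 0.03, with a 95% interval of -0.09 to 0.14.

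Socs3 is among the most direct readouts of STAT3 activity. The gene lies on chromosome 11 from 117966079 to 117970336. It stood at 165, 161 and 157 CPM in control replicates 1 to 3, at 171, 181 and 177 CPM with BRD0705, and at 178, 179 and 156 CPM with CHIR. All BRD0705 libraries were above the controls, and CHIR replicate 3 was below them. The difference from control was 0.13 ± 0.06 with BRD0705 (SE; 95% interval 0.01 to 0.25, edgeR adjusted p = 0.283) and 0.08 ± 0.06 with CHIR (SE; 95% interval -0.04 to 0.21, edgeR adjusted p = 0.454). Neither passed. With the fibroblast marker score as a covariate the Socs3 differences were 0.021 and -0.015.

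Pim1 and Pim3 showed no separation of the groups. Pim1, on chromosome 17 from 29490785 to 29496111, ranged from 64.7 to 70.2 CPM in control, 56.3 to 69.8 CPM with BRD0705 and 64.5 to 72.2 CPM with CHIR. Pim3, on chromosome 15 from 88862194 to 88865726, ranged from 70.4 to 82.4 CPM in control, 71.1 to 82.0 CPM with BRD0705 and 71.3 to 75.8 CPM with CHIR. The 95% intervals against control were -0.23 to 0.07 with BRD0705 and -0.12 to 0.19 with CHIR for Pim1. For Pim3 they were -0.12 to 0.16 and -0.19 to 0.09 on the same log2 scale.

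**Figure D3:**
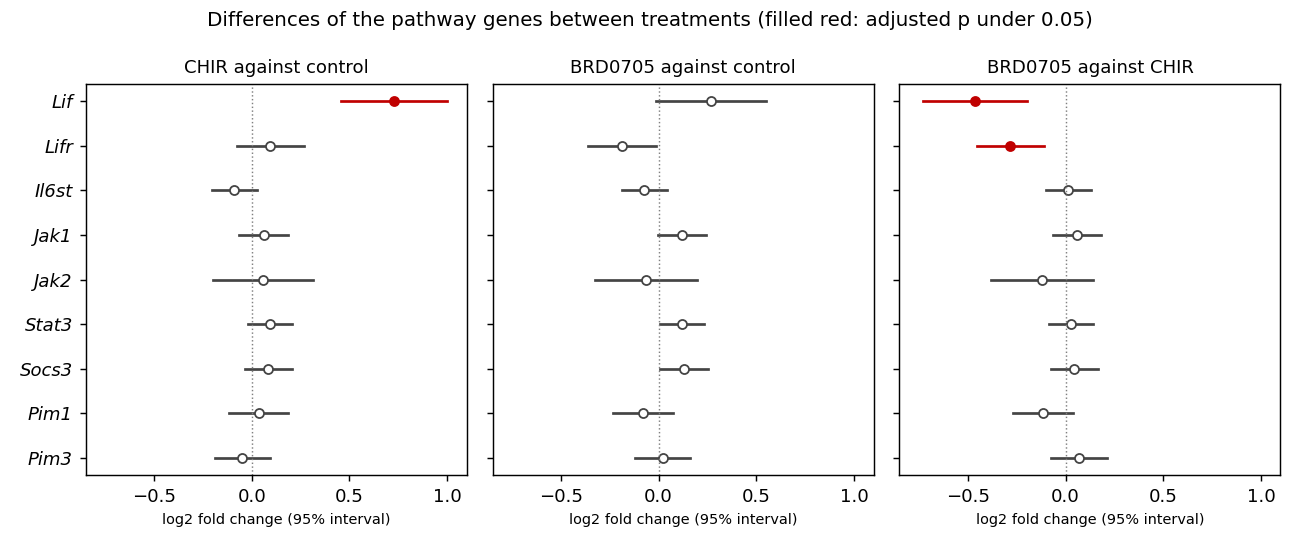
Fitted log2 fold changes of the 9 pathway genes (points) with 95% intervals (lines) for CHIR against control, BRD0705 against control and BRD0705 against CHIR, with filled red points for an adjusted p under 0.05. Lif passes at 0.73 in the first panel and at -0.46 in the last, where Lifr passes at -0.28.

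Counted together, 0 of the 9 members passed with BRD0705 against control, where 1.22% of all tested genes did (0.690% higher and 0.534% lower), and 3 (Lifr, Stat3 and Socs3) had an unadjusted p under 0.05 in edgeR, as did 2436 of the 15366 tested genes. DESeq2 and limma voom also called 0, with 2 and 3 members at an unadjusted p under 0.05. With CHIR against control 1 of 9 passed, against 6.30% of all tested genes (2.52% higher and 3.78% lower). Between the inhibitors 2 of 9 passed, both lower with BRD0705, against 7.77% of all tested genes (4.80% higher and 2.97% lower). Groups did not overlap for 4 members with BRD0705 against control (Lif, Jak1, Stat3 and Socs3), where 20.2% of all tested genes did not overlap. They did not overlap for Lif alone with CHIR, where 25.1% of all tested genes did not, and for Lif and Lifr between the inhibitors, where 26.7% did not. The median log2 fold change of the members was 0.02 with BRD0705 and 0.06 with CHIR, and that of all tested genes was -0.0038 and -0.0091. Both comparisons use the same control libraries.

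The genes with the most similar profile over the 9 libraries were listed for Stat3 and Socs3, among 9563 genes whose mean log2 CPM was 3 or more. For Stat3 they were Arsb, B2m and Cacna1g, each with a Pearson correlation of log2 CPM of 0.97. For Socs3 they were Bin1 at 0.96, Pmp22 at 0.95 and Jak1, a fellow member, at 0.95. Socs3 and Stat3 correlated at 0.84, Socs3 and Pim1 at -0.48, and Stat3 and Lif at 0.56. These values describe 9 libraries that share treatments and differ in their summed fibroblast marker level and in their trend over GC content, whose part in the likeness was not tested. The GC trend (Spearman correlation of each gene's deviation with its GC content) was 0.079 to 0.28 with BRD0705 and -0.12 to -0.064 with CHIR. Between the inhibitors this trend cannot be told apart from treatment. In control it ran from -0.29 to 0.19.

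Beyond the members, 56 further genes of the pathway were listed by role, of which 53 had enough reads to be tested. With BRD0705 against control 3 of 53 passed, all higher, beside 1.22% of all tested genes. With CHIR against control 3 were higher and 2 lower, beside 6.30% of all tested genes in either direction. With BRD0705 against CHIR 4 were higher and 5 lower, beside 7.77%. None of the 2 other Jak genes (Jak3 and Tyk2) and none of the 6 other Stat genes passed in any comparison. Ctf2, Il27 and Il11ra2, with at most 5 reads in any library, were not tested.

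Among other genes known as STAT3 targets, 2 of 17 passed with BRD0705, 4 with CHIR and 5 between the inhibitors, beside 1.22%, 6.30% and 7.77% of all tested genes. Klf4, a naive pluripotency factor, stood at 165, 160 and 169 CPM in control replicates 1 to 3, at 149, 153 and 143 CPM with BRD0705, and at 178, 192 and 195 CPM with CHIR. The 3 groups did not overlap, with BRD0705 lowest and CHIR highest. Klf4 was lower with BRD0705 than with CHIR (log2 difference -0.35 ± 0.05 SE; edgeR adjusted p = 0.000660), which passed in all 20 alternative fits. Against control it rose by 0.19 ± 0.05 with CHIR (SE; edgeR adjusted p = 0.0369), a call that held in 4 of the 9 fits without 1 library. It was lost without any 1 of the 3 control libraries and without CHIR replicate 2 or 3, with edgeR adjusted p values of 0.0678, 0.114 and 0.0624 and of 0.129 and 0.112. It was also lost with scaling by library size only (0.0628) and with the fibroblast covariate (0.118). With BRD0705 the Klf4 difference from control was -0.15 ± 0.05 (SE; edgeR adjusted p = 0.171).

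Myc, a transcription factor that drives growth, showed the reverse order. It stood at 60.3, 51.2 and 58.4 CPM in control replicates 1 to 3, at 72.5, 62.3 and 63.2 CPM with BRD0705, and at 48.3, 46.7 and 48.0 CPM with CHIR. Each BRD0705 library was above, and each CHIR library below, the controls. Myc was higher with BRD0705 than with CHIR by 0.47 ± 0.07 (SE; edgeR adjusted p = 0.000571), in all 20 alternative fits. Its fall with CHIR against control, of -0.25 ± 0.07 (SE; edgeR adjusted p = 0.0476), held in 2 of the 9 fits without 1 library, those without control replicate 2 or BRD0705 replicate 1, with adjusted p values up to 0.175 in edgeR without control replicate 1. It was also lost with limma voom (0.0570), with DESeq2-type size factors (0.0561) and with the fibroblast covariate (0.123).

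Bcl6, a transcriptional repressor, had mean levels of 7.42 ± 0.245 (control), 8.92 ± 0.228 (BRD0705) and 6.11 ± 0.496 (CHIR) CPM (SD over 3 libraries). The difference between the inhibitors of 0.55 ± 0.11 (SE; edgeR adjusted p = 0.00550) passed in all 20 alternative fits, and neither difference from control passed. Cebpd, an acute-phase transcription factor gene, fell with CHIR to 8.71 ± 1.01 CPM, against 11.6 ± 1.06 CPM without treatment (SD over 3 libraries; log2 difference -0.41 ± 0.12 SE, edgeR adjusted p = 0.0439). This Cebpd call held in 3 of the 9 fits without 1 library, those without BRD0705 replicate 2 or 3 or CHIR replicate 1, and otherwise had edgeR adjusted p values of 0.0542 to 0.172. With limma voom its adjusted p was 0.0529. Cebpd was also higher with BRD0705 than with CHIR (0.42 ± 0.12 SE, edgeR adjusted p = 0.0372), in 4 of the 9 fits without 1 library. The fits without control replicate 3, BRD0705 replicate 1 or 3, or CHIR replicate 2 or 3 gave edgeR adjusted p values of 0.0501, 0.137, 0.133, 0.0887 and 0.142. Mcl1, an anti-apoptotic gene, was lower with BRD0705 than with CHIR (log2 difference -0.24 ± 0.06 SE; edgeR adjusted p = 0.0238). It did not pass without BRD0705 replicate 1 or 2 or CHIR replicate 1 or 2 (edgeR adjusted p = 0.111, 0.0685, 0.118 and 0.0737) or with scaling by library size only (0.0675). Mcl1 stood at 299 ± 17.2 CPM in control (SD, n = 3). Against control it differed by -0.06 with BRD0705 and 0.17 with CHIR (edgeR adjusted p = 0.673 and 0.104). The Mcl1 difference with CHIR passed in 1 of 11 alternatives and in 0 of the 9 fits without 1 library.

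Junb, an early response gene of the AP-1 family, rose under both inhibitors. It was at 37.1 to 37.8 CPM in control, 45.2 to 49.0 CPM with BRD0705 and 44.0 to 51.5 CPM with CHIR, with every treated library above every control. The difference was 0.33 ± 0.07 with BRD0705 (SE; edgeR adjusted p = 0.0241) and 0.38 ± 0.07 with CHIR (SE; edgeR adjusted p = 0.00205). Between the inhibitors the Junb difference was -0.05, with a 95% interval of -0.19 to 0.09. Bcl3, a nuclear IκB family gene, rose with BRD0705 from 52.2 ± 4.64 to 68.8 ± 2.17 CPM (SD, n = 3 each; log2 difference 0.40 ± 0.07 SE, edgeR adjusted p = 0.00920), and with CHIR differed by 0.23 ± 0.07 (SE; edgeR adjusted p = 0.0596). The Bcl3 difference with CHIR passed in 5 of 11 alternatives, DESeq2 among them (adjusted p = 0.0356), and in 2 of the 9 fits without 1 library. The BRD0705 calls were lost without control replicate 2 (edgeR adjusted p = 0.0757 for Junb and 0.0608 for Bcl3) and without BRD0705 replicate 1 (0.0657 and 0.0655). The Junb call was also lost without control replicate 3 (0.0884) or BRD0705 replicate 2 (0.0851). With the fibroblast covariate the differences kept their sign but did not pass, at 0.23 for Junb and 0.35 for Bcl3 with BRD0705 (edgeR adjusted p = 0.408 and 0.238) and 0.29 for Junb with CHIR (edgeR adjusted p = 0.0998). The fibroblast score was 6.03 to 6.10 with BRD0705 and 5.81 to 5.96 in control, so score and treatment cannot be told apart in that comparison. With the offsets for GC content and transcript length, Junb with BRD0705 did not pass (edgeR adjusted p = 0.101), while Bcl3 stayed past the threshold.

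Of 16 inhibitors and phosphatases, 0 passed in edgeR with BRD0705 against control (1, Ptpn2, had an unadjusted p under 0.05), 1 with CHIR against control and 3 between the inhibitors, beside 1.22%, 6.30% and 7.77% of all tested genes. Socs2, a relative of Socs3 that acts mainly on growth hormone signalling, rose with CHIR. It stood at 67.5, 65.8 and 68.4 CPM in control replicates 1 to 3, at 71.3, 69.0 and 73.3 CPM with BRD0705, and at 83.7, 82.2 and 84.5 CPM with CHIR. The CHIR libraries were all above the others. The log2 difference was 0.31 ± 0.05 (SE), with an adjusted p of 0.00181 in edgeR, and it passed in all 20 alternative fits. Socs2 was lower with BRD0705 than with CHIR (log2 difference -0.23 ± 0.05 SE; edgeR adjusted p = 0.0134), which was lost without BRD0705 replicate 2 (0.0591). Socs7 was higher with BRD0705 than with CHIR, at 32.6 ± 1.90 against 26.6 ± 1.94 CPM (SD, n = 3 each; edgeR adjusted p = 0.0146). Ptpn11, which encodes the phosphatase SHP2 that couples the receptor to ERK signalling, had a lower level with BRD0705 (69.5 ± 3.41 CPM) than with CHIR (81.3 ± 1.11 CPM; SD over 3 libraries; edgeR adjusted p = 0.0230). Without BRD0705 replicate 1, CHIR replicate 1 or CHIR replicate 3 the Socs7 adjusted p in edgeR was 0.0944, 0.0777 or 0.0556, and it was 0.0628 after the GC and length correction. The Ptpn11 value was 0.108, 0.0533, 0.0736 or 0.0697 without BRD0705 replicate 1 or 2 or CHIR replicate 1 or 2 in edgeR, and 0.0586 with scaling by library size only. Control stood at 30.9 ± 0.610 CPM for Socs7 and 73.8 ± 3.29 CPM for Ptpn11 (SD, n = 3 each). Against control, Socs7 differed by 0.07 with BRD0705 and -0.22 with CHIR (edgeR adjusted p = 0.661 and 0.0695). Ptpn11 differed by -0.08 and 0.14 in the same order (edgeR adjusted p = 0.514 and 0.164). The Socs7 difference with CHIR passed in 3 of 11 alternatives and in 0 of the 9 fits without 1 library.

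**Figure D4:**
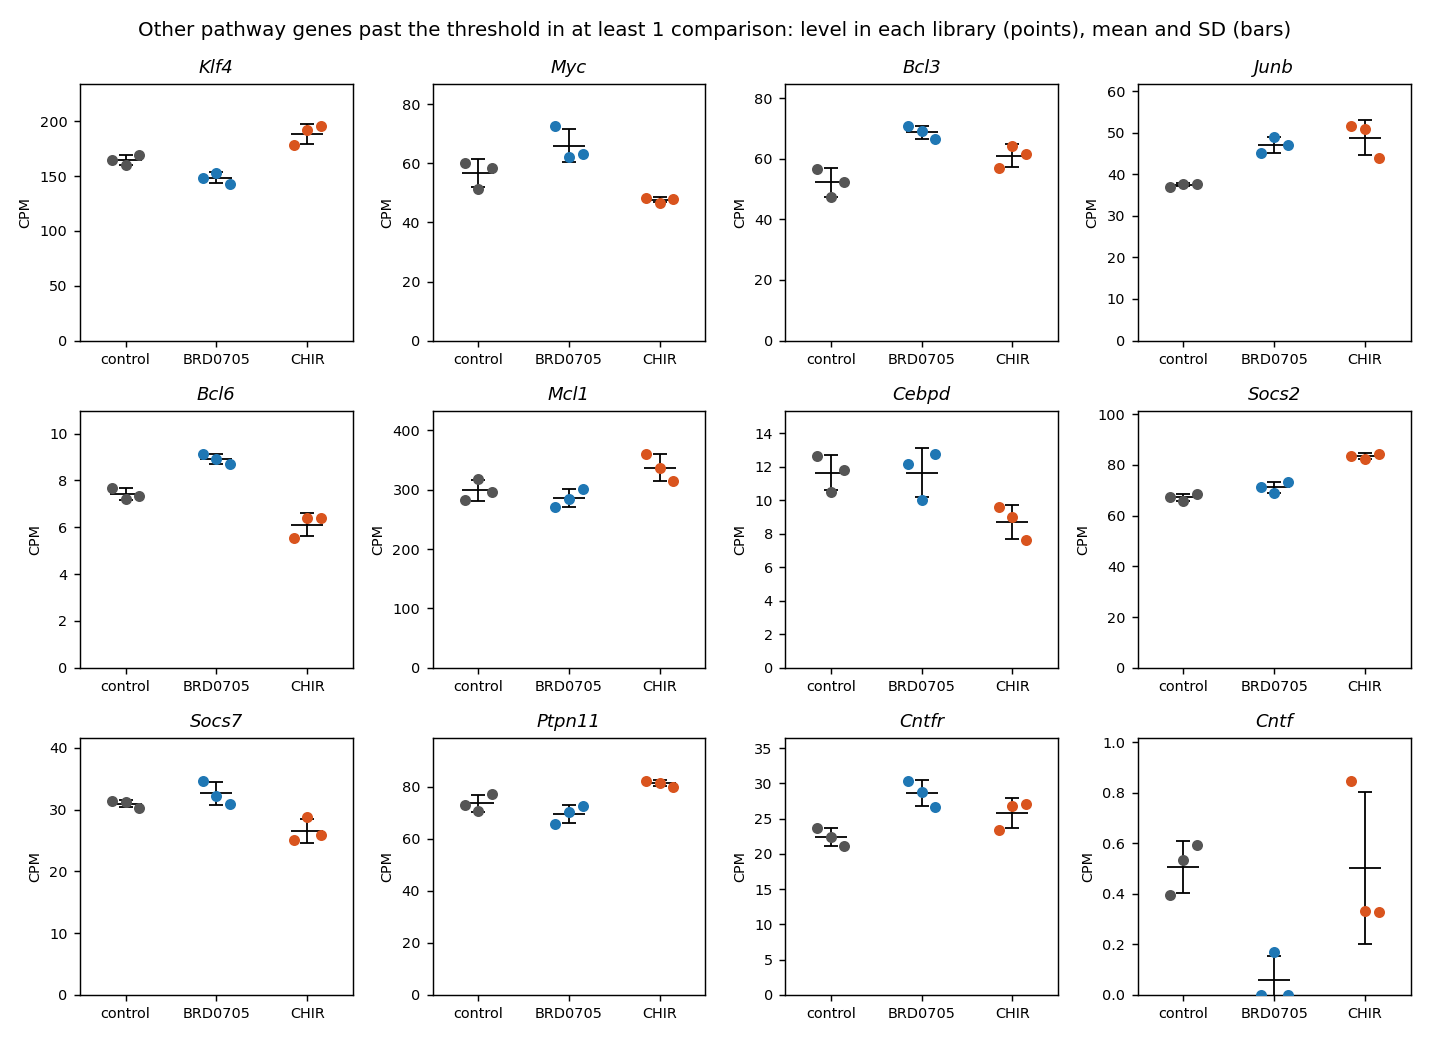
Level in CPM (vertical axis, from 0) of the 12 further pathway genes past the threshold in at least 1 comparison, with 1 point per library and bars for the mean and SD of 3 libraries (the lower bar of Cntf with BRD0705 ends at the axis). Klf4 and Socs2 are highest with CHIR, Myc and Bcl6 are highest with BRD0705 and lowest with CHIR, and Junb is higher than control with both.

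Among other ligands and receptors of the family, Cntfr, the receptor of ciliary neurotrophic factor, rose with BRD0705 from 22.5 ± 1.26 to 28.6 ± 1.88 CPM (SD, n = 3 each; edgeR adjusted p = 0.0368). This call held in 4 of the 9 fits without 1 library. It was lost without control replicate 2 or 3 (edgeR adjusted p = 0.123 and 0.153), BRD0705 replicate 1 or 2 (0.207 and 0.0998) or CHIR replicate 2 (0.0590), after the GC and length correction (0.0617) and with the fibroblast covariate (0.273). With CHIR, Cntfr was at 25.8 ± 2.09 CPM (SD, n = 3), above control by 0.20 ± 0.08 (SE; edgeR adjusted p = 0.154). Between the inhibitors the Cntfr difference was 0.15 ± 0.08 (SE; edgeR adjusted p = 0.263), and neither passed. Cntf, its ligand, had 3 reads in all over the BRD0705 libraries against 29 with CHIR and 31 in control. The ratio of BRD0705 to CHIR was 0.102, with an exact counting interval of 0.0199 to 0.329, and the edgeR adjusted p was 0.0228. That interval pools the reads of each group and leaves out the spread between libraries. CHIR replicates 1 to 3 had 17, 6 and 6 reads of Cntf. All 3 BRD0705 reads of Cntf were in replicate 2, so the ratio is 0 without that library. It was not past the threshold without BRD0705 replicate 1 or 3 or CHIR replicate 1 (0.104, 0.0902 and 0.130 in edgeR). For BRD0705 against control the Cntf adjusted p was 0.0596 in edgeR, 0.00344 in edgeR without the low-count filter and 0.0223 with limma voom. Cntf overlaps Gm44505 on the same strand, whose counts ran from 0 to 32, so these reads could be split between the 2 rows. Strand use in the counting is not stated, so the reads of Stat3, Jak1, Pim1, Junb, Bcl3, Cebpd and Socs2, which overlap annotated genes on the opposite strand, may include some of a neighbour. Jak1 and Ptpn11 each overlap a gene on the same strand (Gm12785 and Gm42930), whose reads could be split with theirs under any strand setting.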

How the data were processed

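The members and the gene lists were chosen with earlier results of these data known. The wider list by role, the cell type markers and the rule for naming genes (all members, every listed gene past the threshold, and the 3 genes most correlated with Stat3 and with Socs3) were fixed with the tests.

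The authors deposited a table of whole-number read counts with 1 row per gene symbol. The submitters' processing notes name RSEM, DESeq2 and mm10, with no role for each. The annotation, the strand setting and any rounding of RSEM's estimates are not given in the sources used here. The labels name both ribosomal RNA depletion and polyA RNA. A table of normalized values was not used.

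Counts were fitted with edgeR 4.0.16 in R 4.3.3 (TMM scaling, filterByExpr with a minimum count of 10, quasi-likelihood F test, 2-sided), with all 9 libraries in 1 fit of 3 group means and 6 residual degrees of freedom. The threshold was 0.05 on p-values adjusted by the Benjamini-Hochberg method over all tested genes. Each standard error is the log2 fold change divided by the square root of F, and 95% intervals use the moderated degrees of freedom. Log2 CPM used a prior count of 2. The fit was also run on simulated counts, with changes larger than most described here and no GC or fibroblast differences between libraries. That run does not show how well differences of the size given here are found. Alternatives tried were DESeq2 1.42.0, limma 3.58.1 with voom, a replicate block, other scalings and filters, only the groups compared, offsets for GC content and transcript length (98.0% of tested genes matched GENCODE vM39), the mean log2 CPM of 12 fibroblast markers as a covariate, and leaving out each library. That fibroblast score was higher in every BRD0705 library than in every control library, so against control the covariate cannot be told apart from BRD0705. Positions and promoters are from RefSeq on GRCm38.p6, and all 9 members matched.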

Additional observations from a re-analysis of the deposited data

How the results depend on the processing

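The rise of Lif with CHIR, the Socs2 rise with CHIR and the Klf4, Myc and Bcl6 differences between the inhibitors passed in every alternative run. Over all genes, BRD0705 against control gave 188 calls, 477 with DESeq2, 609 without a low-count filter, 114 with the GC and length correction, 112 with that correction and the replicate block, and 0 with the fibroblast covariate in edgeR, where 1499 genes had an unadjusted p under 0.05. Leaving out 1 library gave 21 to 305 (21 without BRD0705 replicate 1, 55 without 2 and 305 without 3, 292, 37 and 51 without control replicates 1, 2 and 3, and 98 without CHIR replicate 2). CHIR against control gave 968 calls, 247 with the fibroblast covariate and 514 to 1070 without 1 library (514 and 633 without CHIR replicates 2 and 1, 523 and 561 without control replicates 2 and 3). BRD0705 against CHIR gave 1194, and 616 to 1313 without 1 library (616 and 756 without BRD0705 replicates 1 and 2, 675 and 617 without CHIR replicates 1 and 2). With scaling by library size only, CHIR calls split into 252 higher and 702 lower, against 387 and 581, and those between inhibitors into 912 and 239, against 738 and 456.

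Between the inhibitors, 1 member in place of 2 passed with library size only or with only the groups compared, and 0 to 2 without 1 library. For the wider list, BRD0705 against control gave 3 calls, 5 with DESeq2, 7 without a filter, 1 with the GC and length correction (also with the block), 0 with the fibroblast covariate (7 at an unadjusted p under 0.05 in edgeR) and 0 to 5 without 1 library. CHIR against control gave 5, with 3 by limma voom, 8 without a filter, 9 with the GC and length correction, 8 with it and the block, 2 with the fibroblast covariate and 2 to 6 without 1 library. Between the inhibitors it gave 9, and 4 to 10 without 1 library. The cause of these differences was not tested.

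Only members that did not pass changed sign. With the GC and length correction Pim3 was at -0.079 for BRD0705 against control, and between the inhibitors Il6st was at -0.0071, Stat3 at -0.035, Socs3 at -0.029 and Pim3 at -0.028. With that correction and the replicate block these were -0.079, -0.0050, -0.035, -0.027 and -0.028. With the fibroblast covariate Pim3 was at -0.070 for BRD0705, and Jak1 at -0.026, Jak2 at -0.16 and Socs3 at -0.015 for CHIR against control. Without 1 library, Pim1 ran from -0.15 to 0.0050 and Pim3 from -0.024 to 0.085 for BRD0705 against control, Jak2 from -0.035 to 0.19 and Pim3 from -0.093 to 0.020 for CHIR against control, and Il6st from -0.030 to 0.055, Stat3 from -0.00048 to 0.044 and Socs3 from -0.021 to 0.078 between the inhibitors.

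Libraries share replicate numbers, but no label ties an equal number to a shared culture or day. The mean correlation of deviations was -0.0012 over 9 same-numbered pairs, and a library correlated best with its own number in 8 of 18 combinations. With the replicate block the counts were 222, 973 and 1177 over all genes, 0, 1 and 2 for the members and 3, 5 and 9 for the wider list. It changed no call of a member.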
